A study of Rattus norvegicus with 16 samples.

Results

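The genes described are 10 classical markers of epithelial-mesenchymal transition (EMT): the cadherins Cdh1 and Cdh2, the intermediate filament genes Vim, Krt8 and Krt19, the matrix gene Fn1, and the transition factors Snai1, Snai2, Twist1 and Zeb1. They are named genes that were looked up in the gene column of the count table, and all 10 were found among its 32623 genes. In EMT, epithelial cells loosen their junctions and keratin network and take on features of mesenchymal cells, such as vimentin filaments and a fibronectin matrix. Transcription factors of the Snail, Twist and Zeb families repress epithelial genes, Cdh1 above all, and TGF-beta is a well-known inducer. In the kidney, the process is mostly discussed for tubule cells in injury and fibrosis, where partial forms with mixed markers are common.

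The RNA came from NRK-52E cells, an epithelial line from rat kidney with features of the proximal tubule, and NRK-49F cells, a fibroblast line from rat kidney. NRK-52E cells grew on filter inserts placed over NRK-49F cells in the wells, so that both lines shared the medium. After 24 h without serum, the co-cultures were kept for 48 h at pH 7.4 as control or at pH 6.0 as acidosis. This gave 4 groups of 4 libraries each, control and acidosis for either line. All 4 groups were co-cultured, so no level in cells grown alone is given. The library labels write the media as pH 7 and 6, while the methods give 7.4 and 6.0, which are used here. The labels do not say whether the 4 libraries of a group came from separate cultures; if they did not, the p-values measure only the spread between these samples, which may be technical.

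Counts per library had a median of 19132388 (17760185 to 20612657) in NRK-52E cells at pH 7.4 and 21199012 (16844811 to 23856187) at pH 6.0. In NRK-49F cells the median was 20316554 (17518187 to 27607214) at pH 7.4 and 29093537 (16201084 to 34784862) at pH 6.0. Levels are given as FPM, that is, fragment counts scaled to library size with TMM factors over the 16 libraries, and always in the order of the library numbers: N1, N2, N5 and N6 (control) and N3, N4, N7 and N8 (acidosis) for NRK-52E cells, N9, N10, N13 and N14 (control) and N11, N12, N15 and N16 (acidosis) for NRK-49F cells. Library N8 stood somewhat apart. Its median Pearson r with the other 3 libraries of its group over 11015 genes was 0.967, the lowest of the 16 libraries, while N13 had the next lowest at 0.982. Marker results that rest on N8 are therefore given with and without it. No pair of libraries in a group was as alike as counting noise alone would make it, since chi-square divided by its degrees of freedom was never below 6.12.

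The cell line labels were checked against marker lists. Of 8 epithelial markers, 3 had a mean of at least 1 FPM in NRK-52E cells at pH 7.4 (Cdh1, Krt8 and Krt19), and Esrp1 had no count in any group. Epcam, Krt18, Cdh16 and Grhl2 stayed below 1 FPM in the means of all 4 groups, and Krt18, the usual partner of Krt8 in filaments, had means of 0.0860, 0.134, 0.0289 and 0.00806 FPM. The summed epithelial markers were 468, 436, 397 and 452 FPM in NRK-52E cells at pH 7.4 but 832, 794, 954 and 848 FPM in NRK-49F cells at pH 7.4, with Krt8 as the most abundant gene in both. Of 7 tubule markers, Aqp1 alone reached 1 FPM in NRK-52E cells at pH 7.4 (34.6 FPM ± 7.64 (SD, n = 4)), and Pax2 and Slc34a1 were at 0 there. Fibroblast markers summed to 6479, 6458, 6383 and 6231 FPM in NRK-52E cells at pH 7.4, nearly all of it Col3a1 (mean 6268 FPM), with 5 of 10 markers at 1 FPM or more, and to 7394, 7796, 6752 and 7803 FPM in NRK-49F cells at pH 7.4, led by Col1a1. Of 9 fibroblast markers tested at pH 7.4, 7 were lower in NRK-52E than in NRK-49F cells and 1, Col3a1, was higher (all genes: 33.3% each way). Of the 7, Pdgfra, Prrx1 and Lum passed the filter on low counts through NRK-49F cells and had to differ, so this count is no support for the labels. Thy1, a fibroblast surface marker, had no count in either line, so each label was met by only part of its defining markers. The cause of these zeros and near-zeros was not tested, so they are no evidence that the cells lack these genes. In bulk libraries like these, fewer cells of a type and less RNA per cell cannot be told apart.

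At pH 6.0, NRK-52E cells had less mRNA of Cdh2, Vim, Fn1, Krt8 and Krt19 and more of Snai1. Cdh1 was lower as well, but it passed the filter on low counts only through its pH 7.4 libraries and so had to differ, and its place in the counts is no support. NRK-49F cells had less Cdh2, Vim, Fn1, Krt8 and Snai2 and more Zeb1. A gene was called when its false discovery rate was below 0.01 in both edgeR's quasi-likelihood (QL) test and DESeq2, with the same sign. In NRK-52E cells 7 of the 10 markers were called, against 56.8% of the 13735 genes tested. There, 1 marker was higher, against 28.2% of genes, and 6 were lower, against 28.5%. In NRK-49F cells 6 of the 9 markers tested were called, against 37.8% of the 13339 genes tested. Of these, 1 marker was higher and 5 were lower, against 18.4% and 19.4% of genes, and Cdh1 did not pass the filter on low counts. In NRK-52E cells the markers had a median log2 fold change of -0.76, beside 0.0014 for all genes tested. The corresponding medians in the fibroblast line were -0.86 and -0.0029. The marker median in NRK-52E cells includes Cdh1, so it is no support either. The same holds for each median below that takes in a gene that passed the filter through its higher group.

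The split of all calls in NRK-52E cells depended on the scaling, with 49.7% higher after TMM scaling and 37.6% higher when library totals were used, which moved the median of all genes by -0.21. The 7 called markers kept their direction under library totals. Without N8, 8908 genes and 8 markers were called in NRK-52E cells, with Zeb1 added. The library labels carry a further number of unknown meaning, with 2 libraries per number and pH. Within number 21, 6 markers and 5231 genes were called in NRK-52E cells, and within number 22 Fn1 alone and 2817 genes. In NRK-49F cells 7 markers and 4645 genes were called within number 20, and 3 and 1978 within number 21, in each case with 2 libraries against 2.

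**Figure D1:**
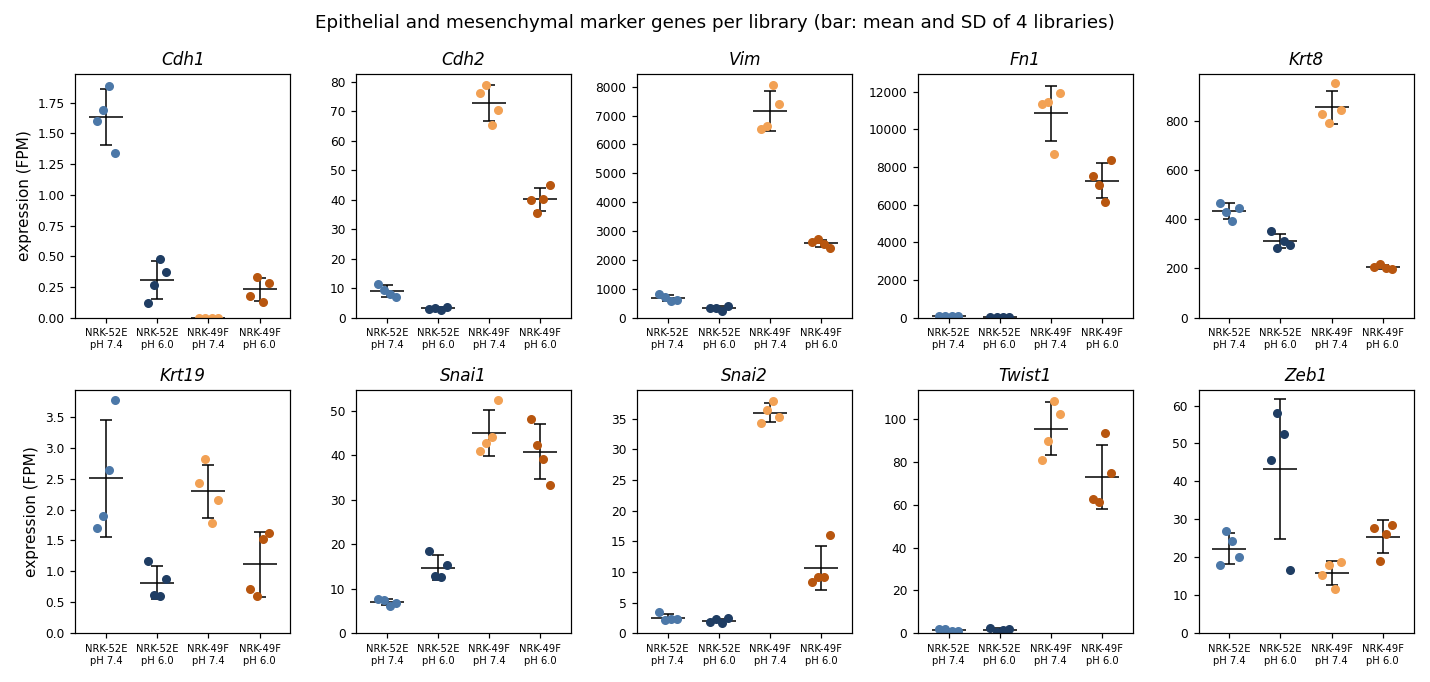
Levels of the 10 EMT markers in FPM, 1 panel per gene on a linear axis from 0, for NRK-52E and NRK-49F cells at pH 7.4 and 6.0. Points are libraries (4 per group), and lines with bars are means ± SD. Fn1 in NRK-52E cells ranged from 69.8 to 105 FPM at pH 7.4 and from 14.6 to 28.5 FPM at pH 6.0, and 1 library of NRK-52E cells at pH 6.0 (N8) had a Zeb1 level of 16.7 FPM, below the other 3.

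Cdh1 (E-cadherin, ENSRNOG00000020151, chromosome 19 of rn6) is the adhesion molecule of epithelial adherens junctions, and its loss is the textbook sign of EMT. In NRK-52E cells it was measured at 1.60, 1.69, 1.89 and 1.34 FPM at pH 7.4 and at 0.122, 0.263, 0.482 and 0.372 FPM at pH 6.0. All 4 libraries at pH 6.0 were below all 4 at pH 7.4, but every value was low, resting on 28 to 45 counts per library at pH 7.4 and 2 to 12 at pH 6.0. Cdh1 fell 4.97-fold under acidosis (log2 fold change -2.31, SE 0.35, edgeR QL test, Benjamini-Hochberg adjusted p = 0.000153). A single library at pH 6.0 had 10 or more counts, so the gene passed the filter on low counts through the pH 7.4 libraries and had to differ. In NRK-49F cells Cdh1 had no count in any library at pH 7.4 and 4, 5, 4 and 9 counts at pH 6.0 (0.178, 0.331, 0.129 and 0.281 FPM). The filter before edgeR removed it there, so it could not be called. DESeq2 gave a fitted log2 fold change of 4.56, which is no bound (Wald test, Benjamini-Hochberg adjusted p = 0.00595), and an exact two-sided permutation test gave p = 0.0286, the smallest possible. The 22 counts at pH 6.0 give a level at least 5.62-fold higher than a floor of 3 counts over the 4 libraries at pH 7.4, where the floor covers counting error only. In order, NRK-52E cells at pH 7.4 stood highest, followed by the acidosis groups of both lines, which overlapped (exact two-sided permutation test, p = 0.457), and by NRK-49F cells at pH 7.4.

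At pH 7.4 Cdh1 was at least 42.2-fold higher in NRK-52E than in NRK-49F cells, from 148 counts against none. The fitted log2 difference of 8.14 depends on the prior count and is no bound. For the interaction of cell line and pH, the fitted value was -7.66 (SE 1.04, edgeR QL test, Benjamini-Hochberg adjusted p = 2.24e-05), which is no bound either, since 1 of the groups was at 0.

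Cdh2 (N-cadherin, ENSRNOG00000015602, chromosome 18) is the cadherin of mesenchymal cells and, in the kidney, also of proximal tubule cells. In NRK-52E cells its levels were 11.4, 9.54, 8.10 and 7.08 FPM at pH 7.4 and 2.94, 3.20, 2.69 and 3.68 FPM at pH 6.0. In NRK-49F cells they were 76.3, 78.7, 65.4 and 70.4 FPM at pH 7.4 and 39.95, 35.3, 40.3 and 44.8 FPM at pH 6.0. The 4 groups did not overlap, and the order from high to low was NRK-49F at pH 7.4, NRK-49F at pH 6.0, NRK-52E at pH 7.4 and NRK-52E at pH 6.0. Acidosis lowered Cdh2 2.86-fold in NRK-52E cells (log2 fold change -1.52, SE 0.20, edgeR QL test, Benjamini-Hochberg adjusted p = 5.76e-05). In NRK-49F cells it lowered Cdh2 1.81-fold (log2 fold change -0.86, SE 0.10, edgeR QL test, Benjamini-Hochberg adjusted p = 2.17e-05). The difference between the lines, -0.67 in log2 fold change, passed the test narrowly (SE 0.20, edgeR QL test, Benjamini-Hochberg adjusted p = 0.00938). It did not pass when any 1 of the libraries N1, N2, N4, N7, N9, N10, N11, N13, N14, N15 or N16 was left out, with values from -0.78 to -0.55 over all 16 omissions. Nor did it pass with the label number as a covariate (-0.65) or with no filter on low counts (-0.66).

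Within the label numbers, the values in NRK-52E cells were, for Cdh1, -3.01 and -1.89 and, for Cdh2, -1.78 and -1.24 (21 and 22), of which the values within number 22 were not called. Cdh2 in NRK-49F cells was at -1.02 within number 20 and -0.68 within number 21, the latter not called. Of 12 listed cadherins and catenins, the latter linking cadherins to actin, 8 were tested in NRK-52E cells, where 5 fell (Cdh1, Cdh2, Cdh3, Cdh11 and Ctnnb1) and none rose, with a median of -0.66 (28.2% of all genes tested rose and 28.5% fell). Of these 5, Cdh1 and Cdh11 passed the filter on low counts through pH 7.4 and had to differ. Jup (0.05), Ctnna1 (-0.02) and Ctnnd1 (-0.27) were tested and not called. Cdh3, or P-cadherin, fell from 663 FPM ± 13.1 to 382 FPM ± 14.9 (SD, n = 4). Beta-catenin, encoded by Ctnnb1, fell from 251 FPM ± 6.75 to 171 FPM ± 27.4 (SD, n = 4). Cdh11, which was named after its values were seen, went from 1.50 to 0.0226 FPM, with 2 counts in all at pH 6.0. In NRK-49F cells 6 of 8 tested fell, none rose, and the median was -0.77 (18.4% of all genes tested rose and 19.4% fell). There Cdh3 fell from 190 FPM ± 27.3 to 46.6 FPM ± 8.94, Cdh11 from 138 FPM ± 7.32 to 36.8 FPM ± 14.4, and plakoglobin (Jup) from 297 FPM ± 27.5 to 153 FPM ± 3.17 (SD, n = 4).

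Vim (vimentin, ENSRNOG00000018087, chromosome 17) encodes the main intermediate filament protein of mesenchymal cells. NRK-52E cells had 814, 727, 590 and 624 FPM at pH 7.4 and 351, 326, 241 and 389 FPM at pH 6.0. NRK-49F cells had 6551, 6651, 8044 and 7409 FPM at pH 7.4 and 2637, 2710, 2560 and 2431 FPM at pH 6.0. No groups overlapped, with NRK-49F at pH 7.4 highest, then NRK-49F at pH 6.0, NRK-52E at pH 7.4 and NRK-52E at pH 6.0. Vim fell 2.09-fold in NRK-52E cells (log2 fold change -1.06, SE 0.16, edgeR QL test, Benjamini-Hochberg adjusted p = 0.00013). The fall was 2.77-fold in NRK-49F cells (log2 fold change -1.47, SE 0.11, edgeR QL test, Benjamini-Hochberg adjusted p = 8.97e-07). These effects were not shown to differ, the interaction being 0.40 (SE 0.19, edgeR QL test, Benjamini-Hochberg adjusted p = 0.0985). Within numbers 21 and 22 the change was -1.20 and -0.93 in NRK-52E cells, the second not called, and within numbers 20 and 21 it was -1.29 and -1.64 in NRK-49F cells.

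Krt8 (keratin 8, ENSRNOG00000009779, chromosome 7) is a keratin of simple epithelia. Fragments that map to several places were counted at each of them, so its counts may be shared with near-identical copies. Its levels in NRK-52E cells were 464, 432, 392 and 447 FPM at pH 7.4 and 353, 285, 313 and 295 FPM at pH 6.0. In the fibroblast line they were 830, 791, 952 and 845 FPM at pH 7.4 and 207, 219, 200.2 and 197 FPM at pH 6.0. The order was NRK-49F at pH 7.4, NRK-52E at pH 7.4, NRK-52E at pH 6.0 and NRK-49F at pH 6.0, without overlap, so the line with more Krt8 changed with pH. Acidosis lowered Krt8 4.16-fold in NRK-49F cells (log2 fold change -2.06, SE 0.10, edgeR QL test, Benjamini-Hochberg adjusted p = 4.80e-08), with -1.91 and -2.18 within numbers 20 and 21. In NRK-52E cells the fall was 1.38-fold (log2 fold change -0.47, SE 0.09, edgeR QL test, Benjamini-Hochberg adjusted p = 0.00118), at -0.50 and -0.45 within numbers 21 and 22, where neither was called. The interaction was 1.58 (SE 0.13, edgeR QL test, Benjamini-Hochberg adjusted p = 3.97e-08).

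Krt19 (keratin 19, ENSRNOG00000014233, chromosome 10), another keratin of simple epithelia, was low in every library. NRK-52E cells had 1.70, 1.90, 2.64 and 3.78 FPM at pH 7.4 and 1.16, 0.614, 0.602 and 0.884 FPM at pH 6.0. NRK-49F cells had 2.42, 2.81, 1.79 and 2.15 FPM at pH 7.4 and 0.712, 0.596, 1.516 and 1.62 FPM at pH 6.0. In both lines all libraries at pH 6.0 were below those at pH 7.4, while the lines overlapped at each pH. Krt19 fell 3.09-fold in NRK-52E cells (log2 fold change -1.63, SE 0.34, edgeR QL test, Benjamini-Hochberg adjusted p = 0.00157), but was not called within number 21 (-1.06) or 22 (-2.09). The change of -0.996 in NRK-49F cells was not called (SE 0.34, edgeR QL test, Benjamini-Hochberg adjusted p = 0.0256), although it was within number 20 (-1.96), unlike within number 21 (-0.34). The interaction was not called either (-0.64, SE 0.50, edgeR QL test, Benjamini-Hochberg adjusted p = 0.294).

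Across the 13 listed intermediate filament genes, 11 were tested in NRK-52E cells, of which 3 rose and 6 fell, with a median of -0.47 (all genes: 28.2% and 28.5%). The genes that rose were Des, Nes and Synm. Desmin (Des), a muscle filament protein, rose from 0.990 FPM ± 0.540 to 30.7 FPM ± 4.15 (SD, n = 4; log2 fold change 4.97, SE 0.29, edgeR QL test, Benjamini-Hochberg adjusted p = 2.51e-07). Nestin (Nes), known from progenitor cells, rose from 0.953 FPM ± 0.0409 to 25.6 FPM ± 5.59 (SD, n = 4; log2 fold change 4.75, SE 0.21, edgeR QL test, Benjamini-Hochberg adjusted p = 6.95e-08). Synm, which encodes synemin, rose from 71.0 to 113 FPM, while Krt7 fell from 36.9 to 15.3 FPM and Lmnb2, a lamin of the nuclear envelope, from 12.6 to 4.51 FPM. In NRK-49F cells 3 of 10 tested rose (Synm, Lmnb1 and Des) and 4 fell (Vim, Krt8, Krt80 and Lmna), with a median of -0.65 (all genes: 18.4% and 19.4%). Synm rose there by 0.98 and Lmnb1 by 0.65 in log2 fold change, and Lmna fell by 1.02. Des, from 1.08 to 2.96 FPM, and Krt80, from 2.99 to 0.394 FPM, were named after their values were seen. Krt80 passed the filter on low counts through pH 7.4, with 2 libraries at 10 counts or more at pH 6.0, so its fall is no support either.

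Fn1 (fibronectin, ENSRNOG00000014288, chromosome 9) encodes a matrix protein that mesenchymal cells secrete and bind. In NRK-52E cells it was at 76.7, 105, 75.6 and 69.8 FPM at pH 7.4 and at 19.7, 28.5, 14.6 and 16.1 FPM at pH 6.0. In NRK-49F cells it was at 11346, 11456, 8677 and 11926 FPM at pH 7.4 and at 7519, 7066, 6165 and 8384 FPM at pH 6.0. The groups did not overlap and followed the order of Cdh2 and Vim, although the lowest NRK-49F library at pH 7.4 (N13) came close to the highest at pH 6.0 (N16). Fn1 fell 4.12-fold in NRK-52E cells (log2 fold change -2.04, SE 0.21, edgeR QL test, Benjamini-Hochberg adjusted p = 9.67e-06), with -1.93 and -2.23 within numbers 21 and 22, both called. In NRK-49F cells the fall was 1.49-fold (log2 fold change -0.57, SE 0.13, edgeR QL test, Benjamini-Hochberg adjusted p = 0.00306). This call was lost without N9 (-0.56), N10 (-0.54), N12 (-0.56), N14 (-0.53) or N15 (-0.49) and within number 21 (-0.51), but not within number 20 (-0.63). The interaction of -1.48 was called (SE 0.26, edgeR QL test, Benjamini-Hochberg adjusted p = 0.000153).

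Among 7 listed fibronectin receptor genes, 4 were tested in NRK-52E cells. Of these, Itga5, the alpha subunit of the main fibronectin integrin, rose from 46.6 FPM ± 3.44 to 88.4 FPM ± 20.97 (SD, n = 4) and none fell, with a median of 0.06 (all genes: 28.2% and 28.5%). In NRK-49F cells 6 were tested, none rose, and the coreceptor Sdc4 (syndecan-4) fell from 506 FPM ± 34.8 to 264 FPM ± 35.6 (SD, n = 4), with a median of -0.12 (all genes: 18.4% and 19.4%).

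Snai1 (Snail, ENSRNOG00000009594, chromosome 3) is a zinc finger repressor that binds E-box motifs of the Cdh1 promoter. In NRK-52E cells it was at 7.63, 7.39, 6.08 and 6.74 FPM at pH 7.4 and at 18.4, 12.8, 12.6 and 15.3 FPM at pH 6.0. In NRK-49F cells it was at 41.0, 42.8, 44.1 and 52.5 FPM at pH 7.4 and at 48.2, 42.4, 39.2 and 33.4 FPM at pH 6.0. Every NRK-52E library at pH 6.0 was above every one at pH 7.4, whereas the NRK-49F groups overlapped and both were above the NRK-52E groups. Snai1 rose 2.14-fold in NRK-52E cells (log2 fold change 1.10, SE 0.17, edgeR QL test, Benjamini-Hochberg adjusted p = 0.00017), with 1.04 and 1.14 within numbers 21 and 22, the second not called. In NRK-49F cells the value was -0.15 (SE 0.13, edgeR QL test, Benjamini-Hochberg adjusted p = 0.350; exact two-sided permutation test, p = 0.343). The pH effects differed between the lines, with an interaction of 1.23 (SE 0.20, edgeR QL test, Benjamini-Hochberg adjusted p = 7.47e-05).

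Snai2 (Slug, ENSRNOG00000047699, chromosome 11) is a close relative of Snai1 that also represses Cdh1. In NRK-49F cells it was at 34.3, 36.4, 37.9 and 35.3 FPM at pH 7.4 and at 8.28, 9.14, 9.10 and 15.97 FPM at pH 6.0. The epithelial line had 3.39, 2.15, 2.31 and 2.39 FPM at pH 7.4 and 1.90, 2.24, 1.73 and 2.42 FPM at pH 6.0. The 4 fibroblast libraries at pH 6.0 were below those at pH 7.4, N16 being the highest of them, and the NRK-52E groups were lowest and overlapped. Snai2 fell 3.37-fold in NRK-49F cells (log2 fold change -1.75, SE 0.19, edgeR QL test, Benjamini-Hochberg adjusted p = 1.28e-05), or by 2.02 without N16, with -2.01 and -1.55 within numbers 20 and 21. In NRK-52E cells the value was -0.29 (SE 0.23, edgeR QL test, Benjamini-Hochberg adjusted p = 0.282; exact two-sided permutation test, p = 0.200). The interaction was 1.45 (SE 0.30, edgeR QL test, Benjamini-Hochberg adjusted p = 0.000545), so that Snai1 and Snai2 each had a different pH effect in the 2 lines. This was not shown for Zeb1, called in NRK-49F cells alone, with an interaction of 0.29. Within number 21, the Snai2 interaction of 1.13 was not called.

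Twist1 (ENSRNOG00000011101, chromosome 6), a basic helix-loop-helix factor of mesoderm, was at 81.0, 89.9, 108 and 102 FPM in NRK-49F cells at pH 7.4 and at 62.9, 61.2, 93.6 and 74.7 FPM at pH 6.0. NRK-52E cells had 1.84, 1.78, 0.839 and 1.24 FPM at pH 7.4 and 2.51, 0.789, 1.28 and 1.91 FPM at pH 6.0. The pH groups overlapped in both lines, and all fibroblast libraries were above all NRK-52E libraries. The change of -0.39 in NRK-49F cells was not called (SE 0.14, edgeR QL test, Benjamini-Hochberg adjusted p = 0.0340), except without N15 (-0.52), within number 20 (-0.45) and with the number as a covariate (-0.40). In NRK-52E cells it was 0.18 (SE 0.38, edgeR QL test, Benjamini-Hochberg adjusted p = 0.686), with a negative value under library totals (-0.04). The interaction of 0.53 was not called (SE 0.37, edgeR QL test, Benjamini-Hochberg adjusted p = 0.239).

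Zeb1 (ENSRNOG00000017863, chromosome 17), a zinc finger and homeodomain repressor of Cdh1, was at 17.9, 26.9, 24.3 and 20.1 FPM in NRK-52E cells at pH 7.4 and at 45.7, 58.1, 52.6 and 16.7 FPM at pH 6.0. In NRK-49F cells it was at 15.4, 18.0, 11.7 and 18.7 FPM at pH 7.4 and at 27.9, 19.1, 26.1 and 28.5 FPM at pH 6.0. N8, with 16.7 FPM, was below all NRK-52E libraries at pH 7.4, while the other 3 at pH 6.0 were above them. With all 8 libraries the log2 fold change of 0.96 in NRK-52E cells was not called (SE 0.31, edgeR QL test, Benjamini-Hochberg adjusted p = 0.0172). DESeq2's Wald test with Benjamini-Hochberg adjustment gave an adjusted p = 0.00485, and an exact two-sided permutation test gave p = 0.143. Without N8 it was 1.23 and called (edgeR QL test, Benjamini-Hochberg adjusted p = 1.83e-05). It was also called within number 21 (1.20), but not within number 22 (0.65), the number of N8, and called with all 16 libraries in one fit (0.96).

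In NRK-49F cells Zeb1 rose 1.59-fold (log2 fold change 0.67, SE 0.16, edgeR QL test, Benjamini-Hochberg adjusted p = 0.00464). This call was lost without N9 (0.64), N11 (0.62), N15 (0.66) or N16 (0.61), within number 20 (0.51) and number 21 (0.83), and with all 16 libraries in one fit, as was that of Fn1 in the same cells. The pH effects on Zeb1 were not shown to differ between the lines (0.29, SE 0.38, edgeR QL test, Benjamini-Hochberg adjusted p = 0.554), nor without N8 (0.56, edgeR QL test, Benjamini-Hochberg adjusted p = 0.0550). In the order of means, NRK-52E at pH 6.0 was followed by NRK-49F at pH 6.0, NRK-52E at pH 7.4 and NRK-49F at pH 7.4, and each overlapped the next.

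Of 13 listed transition factors, 9 were tested in NRK-52E cells, where Snai1 rose and Twist2 and Tcf4 fell, with a median of -0.11 (all genes: 28.2% and 28.5%). Twist2, from 3.14 to 1.54 FPM, and Tcf4, from 4.31 to 2.01 FPM, were named after their values were seen. The Twist2 call was lost without N1, N2, N3, N4, N6 or N7 (-1.29 to -0.88 over all omissions), and that of Tcf4 without N2 (-1.05). In NRK-49F cells 10 were tested, where Zeb1 rose and Snai2 and Tcf4 fell, with a median of -0.13 (all genes: 18.4% and 19.4%). The fall of Tcf4 there, from 10.6 to 6.91 FPM, was lost without N9, N10, N11, N12, N14, N15 or N16 (-0.70 to -0.49 over all omissions).

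**Figure D2:**
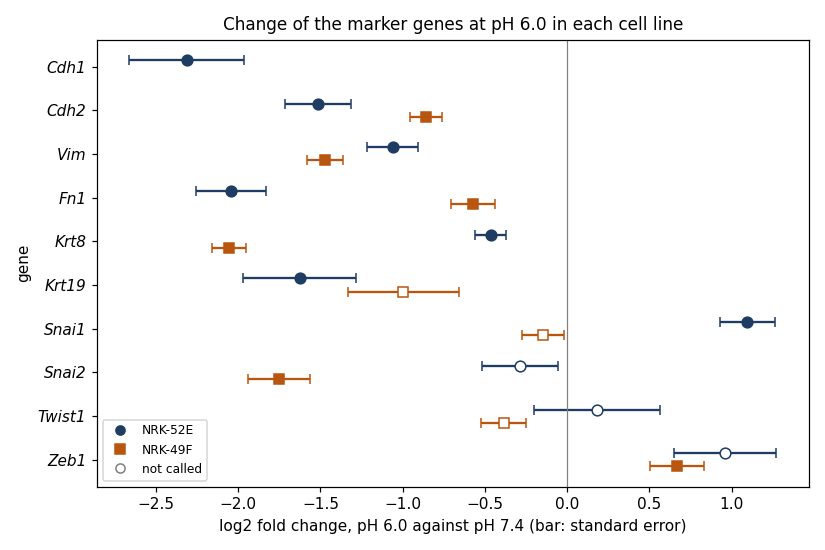
Log2 fold change at pH 6.0 against pH 7.4 with SE for each EMT marker, circles for NRK-52E and squares for NRK-49F cells, filled where called and open where not (n = 4 libraries per group). Snai1 stood at 1.10 for the epithelial and -0.15 for the fibroblast line, Krt8 at -0.47 and -2.06, and Cdh1 has no point for NRK-49F cells, where edgeR did not test it.

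Between the cell lines, NRK-52E cells had less Cdh2, Vim, Fn1, Snai1, Snai2 and Twist1 than NRK-49F cells at both pH values. At pH 7.4, 9 of the 10 markers were called, against 66.6% of the 14026 genes tested. Of these, 2 were higher in NRK-52E cells (Cdh1 and Zeb1) and 7 lower, against 33.3% of genes each way; Cdh1 passed the filter through NRK-52E cells and had to differ, and the median was -2.77 beside 0.029 for all genes. Fn1 differed most among the markers called at pH 7.4 without a group at 0, being 125-fold lower in NRK-52E cells (log2 difference -6.97, SE 0.19, edgeR QL test, Benjamini-Hochberg adjusted p = 4.34e-11). Twist1 was 63.2-fold lower (log2 difference -5.98, SE 0.20, edgeR QL test, Benjamini-Hochberg adjusted p = 1.93e-10). The differences were -3.73 for Snai2, -3.30 for Vim, -2.92 for Cdh2, -2.61 for Snai1 and -0.90 for Krt8, each without overlap of libraries. For Krt19 it was 0.21 (SE 0.28, edgeR QL test, Benjamini-Hochberg adjusted p = 0.511). Zeb1 was called at 0.56 although its libraries overlapped (SE 0.17, edgeR QL test, Benjamini-Hochberg adjusted p = 0.00992; exact two-sided permutation test, p = 0.0857), and the call was lost without N2 (0.46), N5 (0.51), N6 (0.60), N9 (0.54), N10 (0.62) or N13 (0.44). It was also lost with the label number as a covariate (0.61), with all 16 libraries in one fit (0.48) and when the filter asked for 1 CPM in 4 libraries (0.56). Within number 21, 8 markers and 5673 genes were called at pH 7.4, with -6.75 for Fn1, -5.79 for Twist1 and 0.62 for Zeb1, the last not called.

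At pH 6.0, 7 of the 9 markers tested were called, against 59.8% of the 13796 genes tested. Here 1 was higher in NRK-52E cells (Krt8) and 6 lower, against 28.6% and 31.2% of genes, with a median of -2.36 beside -0.027 for all genes. Fn1 was 369-fold lower in NRK-52E cells (log2 difference -8.53, SE 0.28, edgeR QL test, Benjamini-Hochberg adjusted p = 1.18e-10). The other differences were -5.53 for Twist1, -3.68 for Cdh2, -2.98 for Vim, -2.36 for Snai2 and -1.46 for Snai1. Krt8, lower in NRK-52E than in NRK-49F cells at pH 7.4, was higher at pH 6.0 (log2 difference 0.60, SE 0.10, edgeR QL test, Benjamini-Hochberg adjusted p = 0.000219). Krt19 at -0.51 and Zeb1 at 0.77 were not called, and Zeb1 was called without N8 (1.03). Without N8, 9259 genes and 8 markers were called at pH 6.0, beside 8250 and 7 with it. Within number 21, 8 markers and 7357 genes were called, with -8.24 for Fn1, -5.76 for Twist1, 0.68 for Krt8 and 0.92 for Zeb1.

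With library totals in place of TMM the median of all genes moved by 0.31 between the lines at pH 7.4 and by 0.15 at pH 6.0, and the share of calls that were higher in NRK-52E cells from 50.0% to 65.7% at pH 7.4. The called markers kept their direction. For the interaction of cell line and pH, 6 of the 10 markers were called, against 36.9% of the 14679 genes tested. Of these, 3 were higher (Krt8, Snai1 and Snai2) and 3 lower (Cdh1, Cdh2 and Fn1), against 19.3% and 17.5% of genes, and Cdh1 is again in the count through 1 high group. A positive value means a higher log2 fold change in NRK-52E than in NRK-49F cells. Library totals moved the median of all genes here by -0.23 and the share of positive calls from 52.4% to 33.8%, and the 6 called markers kept their sign. Within number 21 the interaction was called for Krt8 (1.68), Snai1 (1.46), Cdh2 (-1.10) and, as a fitted value, Cdh1, but not for Fn1 (-1.42) or Snai2 (1.13).

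Further epithelial genes were examined from a list of 21, of which 20 were found in the table. In NRK-52E cells 12 were tested, 2 rose, 7 fell, and the median was -0.99 (all genes: 28.2% and 28.5%). Of the 7, Cdh1 and Dsp passed the filter on low counts through pH 7.4 and had to differ. Desmoplakin (Dsp), which anchors keratin at desmosomes, fell from 5.09 FPM ± 1.02 to 0.124 FPM ± 0.169 (SD, n = 4), with 0 to 8 counts per library at pH 6.0. Occludin (Ocln), a tight junction protein, fell from 41.5 FPM ± 1.97 to 9.54 FPM ± 1.10 (SD, n = 4). The tight junction scaffold Tjp1 rose from 374 FPM ± 31.0 to 571 FPM ± 90.4 (SD, n = 4). Muc1, a mucin named after its values were seen, was called from 0.633 to 1.55 FPM although its libraries overlapped and it passed the filter through pH 6.0 (3 libraries at pH 7.4 had 10 counts or more), and not without N1, N3, N5, N6, N7 or N8 (1.06 to 1.63 over all omissions). In NRK-49F cells 8 were tested, none rose, 4 fell (Krt8, Cldn1, Jup and Itgb4), and the median was -0.98 (all genes: 18.4% and 19.4%). Itgb4, an integrin of hemidesmosomes, fell from 347 FPM ± 30.8 to 72.4 FPM ± 23.9 (SD, n = 4). Cldn1, a claudin named after its values were seen, went from 0.962 FPM to no count and likewise had to differ.

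Of 24 listed mesenchymal genes, 21 were tested in NRK-52E cells, of which 4 rose and 14 fell, with a median of -1.05 (all genes: 28.2% and 28.5%). Of the 14, Cdh11 and Fbn1 had to differ in the same sense. Tnc also passed the filter on low counts through pH 7.4, with 3 libraries at 10 counts or more at pH 6.0, so its fall is no support. Periostin (Postn) fell from 45.4 FPM ± 6.40 to 8.76 FPM ± 2.89 and Pdgfrb, a growth factor receptor of mesenchymal cells, from 46.8 FPM ± 4.93 to 16.1 FPM ± 3.15 (SD, n = 4). Cd44, the hyaluronan receptor, rose from 4.20 FPM ± 0.661 to 18.3 FPM ± 3.51 (SD, n = 4), as did Itga5. Mmp2, from 2.29 to 4.56 FPM, and Ddr2, from 0.589 to 2.99 FPM, also rose and were named after their values were seen, Ddr2 passing the filter through pH 6.0. In NRK-49F cells 22 were tested, of which 3 rose and 10 fell, with a median of -0.48 (all genes: 18.4% and 19.4%). Among the 10, Acta2 passed the filter on low counts through pH 7.4. At pH 6.0, 3 of its libraries had 10 counts or more, so its fall is no support. The genes that rose were Mmp2 (452 FPM ± 50.2 to 943 FPM ± 101; SD, n = 4), Cd44 (246 to 483 FPM) and Ddr2 (44.0 to 78.5 FPM). Col3a1, a fibrillar collagen, fell from 462 to 53.7 FPM, and tenascin-C (Tnc) from 100.3 FPM to 24.1 FPM (means, n = 4).

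Regulators that hold the epithelial state, 11 in the list, gave few tested genes. In NRK-52E cells 6 were tested, Grhl1 rose from 2.11 to 5.57 FPM, Klf5 fell from 278 to 164 FPM, and Ovol2 fell from 0.826 to 0.299 FPM, with a median of -0.15 (all genes: 28.2% and 28.5%). Ovol2 was named after its values were seen, had to differ after passing the filter through pH 7.4, and its call was lost without N1, N2, N4, N5, N6, N7 or N8 (-1.80 to -1.27 over all omissions). In NRK-49F cells 4 were tested, Klf5 rose from 5.38 to 9.98 FPM and Klf4 fell from 210 to 146 FPM, with a median of 0.18 (all genes: 18.4% and 19.4%). The Klf5 call was lost without N14 (0.79), and that of Klf4, whose libraries overlapped, without N9, N10, N11, N12, N15 or N16 (-0.65 to -0.43 over all omissions).

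TGF-beta ligands, receptors and related inputs numbered 14 in the list, with 12 tested in each line. In NRK-52E cells 3 rose (Notch1, Smad3 and Smad4) and 5 fell (Met, Smad2, Jag1, Tgfb2 and Tgfbr3), with a median of -0.40 (all genes: 28.2% and 28.5%). Met, the receptor of hepatocyte growth factor, fell from 58.7 FPM ± 9.39 to 20.9 FPM ± 7.29, and Notch1 rose from 33.5 FPM ± 4.99 to 84.6 FPM ± 29.0 (SD, n = 4). Tgfb2 and Tgfbr3 were named after their values were seen. Tgfb3 (-0.29) was not called with all libraries but was called without N8 (-0.34). Calls were lost for Smad4 without N1, N2, N3, N4, N6 or N7 (0.51 to 0.74 over all omissions), for Jag1 without N2, N4, N5, N6, N7 or N8 (-0.88 to -0.62) and for Tgfbr3 without N2, N3, N5, N6 or N7 (-0.48 to -0.34). In NRK-49F cells 3 rose (Met, Tgfb2 and Smad4) and 3 fell (Tgfb3, Tgfb1 and Smad2), with a median of 0.18 (all genes: 18.4% and 19.4%). The ligand Tgfb3 fell from 163 FPM ± 11.6 to 55.0 FPM ± 2.05 and Tgfb1 from 193 FPM ± 30.3 to 110 FPM ± 9.27 (SD, n = 4). The call of Smad2 was lost without N9 (-0.41) or N12 (-0.42).

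Among target genes of TGF-beta and BMP signals, Ccn2, Smad7 and Pmepa1 fell in NRK-52E cells. Ccn2, a matricellular protein known from fibrosis, fell from 1488 FPM ± 36.8 to 497 FPM ± 16.7 (SD, n = 4). Id3 (-0.33) was not called there with all libraries but was called without N8 (-0.74). In NRK-49F cells Ccn2 fell from 1325 FPM ± 170 to 71.4 FPM ± 39.1, and the BMP targets Id1 and Id3 from 76.5 FPM ± 11.99 to 13.95 FPM ± 2.19 and from 366 FPM ± 43.5 to 95.3 FPM ± 24.0 (SD, n = 4).

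Markers of other cell types moved with pH in the same libraries, and their part in the changes of the EMT markers was not tested. Fibroblast markers summed to 3215, 2941, 2569 and 1829 FPM in NRK-52E cells at pH 6.0, below all sums at pH 7.4, with Thy1, Lum and Prrx1 at 0. Of 6 tested genes, 5 were lower and none higher (all genes: 28.5% and 28.2%). Dcn, 1 of the 5, passed the filter through pH 7.4 and had to differ. In NRK-49F cells at pH 6.0 the same sums were 9496, 8882, 9461 and 7868 FPM, above those at pH 7.4. There, 3 of 8 tested genes were lower and none higher (all genes: 19.4% and 18.4%). Epithelial markers at pH 6.0 summed to 354, 286, 315 and 296 FPM in NRK-52E cells and, in NRK-49F cells, to 208, 220, 202 and 199 FPM, nearly all of it Krt8. Of 3 endothelial markers, Tek made up most of the sums of 35.6, 44.5, 43.9 and 42.3 FPM at pH 7.4 and 5.75, 7.32, 6.86 and 7.96 FPM at pH 6.0 for the epithelial line, and Kdr was at 0. NRK-49F cells had sums of 1.10, 0.358, 0.993 and 0.756 FPM and of 0.756, 0.265, 0.548 and 0.468 FPM.

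Of 3 smooth muscle markers, 2 were tested in NRK-52E cells, Des and Myh11, and both rose (all genes: 28.2% rose and 28.5% fell). The sums there were 8.01, 5.74, 6.92 and 6.07 FPM at pH 7.4 and 50.8, 41.9, 43.7 and 46.0 FPM at pH 6.0. Des and Myh11 were also the 2 tested in NRK-49F cells and rose (all genes: 18.4% and 19.4%). The sums were 6.64, 8.43, 6.68 and 7.56 FPM at pH 7.4 and 12.2, 13.3, 15.97 and 13.35 FPM at pH 6.0. Tagln and Acta2, named after their values were seen, are also known from smooth muscle and did not rise. In NRK-52E cells Tagln fell from 173 to 96.8 FPM, and Acta2, from 197 to 105 FPM, was not called. Acta2 fell in NRK-49F cells, passing the filter on low counts through pH 7.4, and Tagln was not called there. Of 3 leukocyte markers, Cd68 alone was tested in NRK-49F cells, where it rose (all genes: 18.4% rose and 19.4% fell). Cd68 led the sums there of 62.9, 73.7, 97.5 and 93.1 FPM at pH 7.4 and 226, 226, 261 and 257 FPM at pH 6.0, while Ptprc was at 0 in all groups. In the epithelial line those sums were 2.31, 1.32, 2.01 and 1.39 FPM at pH 7.4 and 2.02, 2.63, 2.09 and 2.65 FPM at pH 6.0. Tubule markers, led by Aqp1, summed to 43.8, 40.7, 26.8 and 33.3 FPM in NRK-52E cells at pH 7.4 and to 25.5, 27.6, 22.8 and 32.4 FPM at pH 6.0, which overlapped, and neither of the 2 genes tested was called. In NRK-49F cells they summed to 31.0, 27.4, 19.7 and 26.7 FPM at pH 7.4 and to 27.3, 32.3, 46.4 and 74.2 FPM at pH 6.0.

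Genes with the most similar levels to each marker over the 16 libraries were found by Pearson's r of log2(FPM + 1), as a description in which libraries share cell line and pH. For Cdh1 these were Rxfp1 (r = 0.979) and Ncapd3 (r = 0.975), and for Cdh2 Tshz3 (r = 0.997) and Lgals3bp (r = 0.996). Vim was closest to Sh3bp5 (r = 0.994) and Cfl1 (r = 0.993), Krt8 to Carhsp1 (r = 0.978) and Ankmy2 (r = 0.971), and Krt19 to Plpp2 (r = 0.877) and Mthfs (r = 0.876). Fn1 was closest to Ankh and Fbn1 (r = 0.996 each). Among the factors, Snai1 was closest to Prr7 and Creb3l1 (r = 0.991 each), Snai2 to Ccn3 (r = 0.993) and Rtp4 (r = 0.992), Twist1 to Pdlim1 and Sirt5 (r = 0.997 each), and Zeb1 to Kpna6 (r = 0.965) and Nt5dc3 (r = 0.964). Creb3l1, for example, had 6.522 FPM ± 0.581 in NRK-52E cells at pH 7.4 and 16.7 FPM ± 3.74 at pH 6.0, and 54.4 FPM ± 4.64 and 47.3 FPM ± 13.2 in NRK-49F cells (SD, n = 4).

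Promoter sequences are shown for markers that hold the E-box letters CAGGTG, the motif that Snail and Zeb factors are known to bind. RefSeq windows of 300 bases around the gene start (build GRCr8, which is not the build of the counts) matched 5 of the 10 markers: Vim, Krt8, Snai1, Twist1 and Zeb1. The letters CAGGTG, or CACCTG when read on the other strand, occur in 3 of them (Krt8, Snai1 and Zeb1) and in 18.8% of all 33469 windows. The Krt8 window (chr7:135010290-135010589, minus strand) and the Snai1 window (chr3:176667226-176667525, plus strand) hold it once, and the Zeb1 window (chr17:56810604-56810903, minus strand) holds 2 copies. Sequences run 5′ to 3′ on the strand of the gene, with the motif in capitals. A match is a description of the letters and shows no binding.
Krt8: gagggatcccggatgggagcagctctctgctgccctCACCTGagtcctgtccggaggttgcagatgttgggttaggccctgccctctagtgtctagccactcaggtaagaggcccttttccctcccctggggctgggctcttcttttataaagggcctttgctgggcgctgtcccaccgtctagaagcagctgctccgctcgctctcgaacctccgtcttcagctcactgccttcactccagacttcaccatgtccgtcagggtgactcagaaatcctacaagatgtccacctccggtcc
Snai1: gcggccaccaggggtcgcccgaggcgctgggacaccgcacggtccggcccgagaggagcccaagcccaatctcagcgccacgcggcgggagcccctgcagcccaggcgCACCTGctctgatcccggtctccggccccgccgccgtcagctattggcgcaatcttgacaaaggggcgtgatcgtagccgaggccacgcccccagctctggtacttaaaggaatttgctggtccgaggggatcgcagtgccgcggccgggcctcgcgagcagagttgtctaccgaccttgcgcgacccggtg
Zeb1: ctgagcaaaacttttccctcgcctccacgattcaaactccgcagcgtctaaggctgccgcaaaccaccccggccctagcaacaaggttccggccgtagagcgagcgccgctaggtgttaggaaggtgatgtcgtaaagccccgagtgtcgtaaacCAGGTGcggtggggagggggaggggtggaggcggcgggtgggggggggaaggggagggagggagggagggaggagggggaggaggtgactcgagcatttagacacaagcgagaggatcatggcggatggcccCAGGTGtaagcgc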

How the data were processed

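RNA sequencing counts of 16 libraries were analysed. Per the methods, the authors mapped reads to the rat genome with tophat2, while the submitters' processing notes name HISAT2 2.1.0 and the build rn6. The authors deposited raw counts per Ensembl gene from featureCounts, which included multi-mapping fragments, so near-identical copies such as keratin pseudogenes share counts. The counting options in the methods name no strand setting, for which featureCounts' default is unstranded. No library was left out, and 16201084 to 34784862 counts per library set the precision.

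FPM values came from edgeR's cpm with TMM factors. Each comparison of 4 against 4 libraries was fitted in R 4.3.3 with edgeR 4.0.16 (quasi-likelihood test) and DESeq2 1.42.0 (Wald test), with Benjamini-Hochberg adjustment. The edgeR fit used the whole table after filterByExpr (minimum count 10), and the DESeq2 fit all genes with a count in the libraries compared. Genes with a false discovery rate below 0.01 in both, with the same sign, were called. The interaction used all 16 libraries. Standard errors were derived from edgeR's F statistic, as |log2 fold change| over its root. Exact two-sided permutation tests used log2(FPM + 1), where the smallest p with 4 against 4 is 0.0286.

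Named were all 10 markers, from each list and line the 3 called genes with the largest rise and fall and at least 5 FPM in the higher group, the 2 most similar genes per marker (mean of at least 5 FPM), and the most abundant cell type markers. The members and lists were chosen with earlier results of these data known. Alternatives were library totals or DESeq2 size factors for TMM, no filter or at least 1 CPM in 4 libraries, either tool alone, a false discovery rate below 0.05, all 16 libraries in one fit, the number in the library labels, and each library left out. Pkp2 and Pecam1 were not analysed here.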

Additional observations from a re-analysis of the deposited data

Results flagged for a closer look

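The Snai2 level of library N16, at 15.97 FPM, stood apart from the other 3 libraries of NRK-49F cells at pH 6.0, which lay between 8.275 and 9.142 FPM. It was the 1 such library among 39 groups of marker values, where chance marks about 1 in 20 groups (1.95 here).

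The pH effect differed between the cell lines for 6 markers by the interaction test. The log2 fold change in NRK-52E minus that in NRK-49F cells was -7.655 for Cdh1 (a fitted value with 1 group at 0), -0.6733 for Cdh2, -1.479 for Fn1, 1.577 for Krt8, 1.228 for Snai1 and 1.451 for Snai2. The Cdh2 call was lost without any 1 of 11 libraries, with values between -0.78 and -0.55 over all omissions.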

How the results depend on the processing

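Of 952 recomputed log2 fold changes of the markers, 882 kept their direction and their side of the threshold, 48 were no longer called, 14 became called and 8 changed sign, none of them a called value. For all named genes, 2509 of 2735 kept both, 164 lost and 43 gained a call, and 19 changed sign. With 2 libraries against 2 within number 22, 2817 genes and 1 marker were called in NRK-52E cells (7800 and 7 with all libraries). Within number 21, 1978 genes and 3 markers were called in NRK-49F cells (5038 and 6), 5673 genes between the lines at pH 7.4 (9336) and 2521 for the interaction (5411), with fewer libraries in each fit. In NRK-52E cells, Twist1 (0.18) went to -0.036 with library totals and -0.19 within number 21, and ranged from -0.086 to 0.40 over omissions of 1 library, being negative without N3 or N5. Jup (0.05) went to -0.16 with library totals and ranged from -0.0054 (without N6) to 0.085 over omissions, and Lmna (-0.07) from -0.15 to 0.017 (without N8). Id1 (0.25) was -0.028 within number 21, and Id3 (-0.33) was 0.16 within number 22. In NRK-49F cells, Snai1 (-0.15) was 0.13 within number 20, Smad3 (0.08) was -0.015 within number 20, Muc1 (-0.30) was 0.19 within number 21, and Tjp1 (-0.05) was 0.037 within number 21 and ranged from -0.12 to 0.029 over omissions, being positive without N9, N10 or N15. Krt19 between the lines at pH 7.4 (0.21) was -0.073 with the number as a covariate and -0.068 within number 21, and ranged from -0.066 (without N6) to 0.35 over omissions. For these changes of sign the cause was not tested. Single libraries could not be paired, because the library numbers N1 to N16 are unique and no groups share one. The further label number is shared by 2 libraries per group; as a covariate it gave 7551, 5208, 7398, 6655 and 5268 called genes in the 5 comparisons. Depth limits Cdh1, Krt19 and, in NRK-52E cells, Twist1, whose counts per library were low.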
